A study of Rattus norvegicus with 4 samples.

Results

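The genes of the synaptic vesicle and of the SNARE fusion machinery were followed in lumbar dorsal root ganglia (DRGs) from rats given vehicle or cisplatin. The members were set by a rule on gene names, chosen with earlier results of these data known. The rule took protein-coding genes called Syt, Stx, Stxbp, Vamp, Snap, Sv2, Syn, Syp, Synj, Cplx, Rab3, Unc13 or Rims with a number or letter. It also took Napa, Napb, Napg and Nsf. The rule found 77 genes among 22293 protein-coding genes, and 73 of them had enough counts to be tested, out of 14719 genes tested in all. Snap91 entered by its name only, since it encodes the clathrin assembly protein AP180 and no SNARE. Sv2b is annotated as a processed transcript in the deposited table and so lay outside the rule.

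All rats were wild-type Wistar rats. The vehicle group received PBS and the cisplatin group received cisplatin, a platinum-based chemotherapeutic, at 0.3 mg/kg by intraperitoneal injection on P14 and P16. Ganglia were collected on P23 according to the methods of the study, whereas the sample labels state 16 days after treatment. The comparison asked which transcripts differed in the ganglion when pain behaviour appeared. Each group had 2 libraries, each made from 2 to 5 pooled DRGs of a rat, and rats of both sexes were used in the study, with the sex behind each library not given in the sources used here.

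Transmitter release begins when a SNARE protein on the vesicle zips together with SNARE proteins of the target membrane. Synaptotagmins sense calcium, complexins and syntaxin-binding proteins control the assembly, Rab3, RIM and Munc13 proteins dock and prime the vesicle, and NSF with its SNAP adaptors takes the spent complex apart. In the DRG the neuronal forms lie in sensory neurons, which export the proteins to their central terminals in the spinal cord, whereas the endosomal and Golgi relatives serve membrane traffic in every cell type.

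The 4 libraries held 21384801 to 25618417 counts over 33506 genes. Levels are given as CPM, counts scaled to library size with TMM factors, and levels of different genes are compared as FPKM, which also divides by gene length. A level of 3 counts, the lowest used for a bound, corresponded to 0.118 to 0.152 CPM, and such limits cover counting error only. The 10 sensory neuron markers, among them Prph and Nefl, were detected in every library and summed to 21361 to 28390 CPM in vehicle-treated and 23675 to 32743 CPM in cisplatin-treated rats. Vehicle replicate 1 stood apart: the 8 markers of spinal cord and CNS glia summed to 108 CPM there, against 10.2 CPM in vehicle replicate 2 and 12.4 and 12.3 CPM in the cisplatin libraries. The glycine transporter Slc6a5 had 286 counts in that library and 2, 9 and 4 in the others, and the oligodendrocyte gene Mobp had 989 against 43, 19 and 47. Of these 8 markers, Chat was at 0 in vehicle replicate 2 and cisplatin replicate 2, and Gad2 was at 0 in vehicle replicate 2. Markers of other cell types also differed between libraries. The 8 Schwann cell markers summed to 61130 and 156758 CPM in vehicle-treated and 47875 and 137188 CPM in cisplatin-treated rats, the 6 satellite glia markers to 414 to 613 CPM, the 10 macrophage and leukocyte markers to 59.3 to 70.0 CPM, the 8 fibroblast and meninges markers to 4697 to 12353 CPM, and the 5 endothelial markers in the table to 77.4 to 119 CPM. No pair of libraries was a repeat of the other, since the chi-square per degree of freedom was 43.5 even for the closest pair. That pair was vehicle replicate 2 with cisplatin replicate 2, from different groups. The 2 vehicle libraries were at 109 and the 2 cisplatin libraries at 143.

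**Figure D1:**
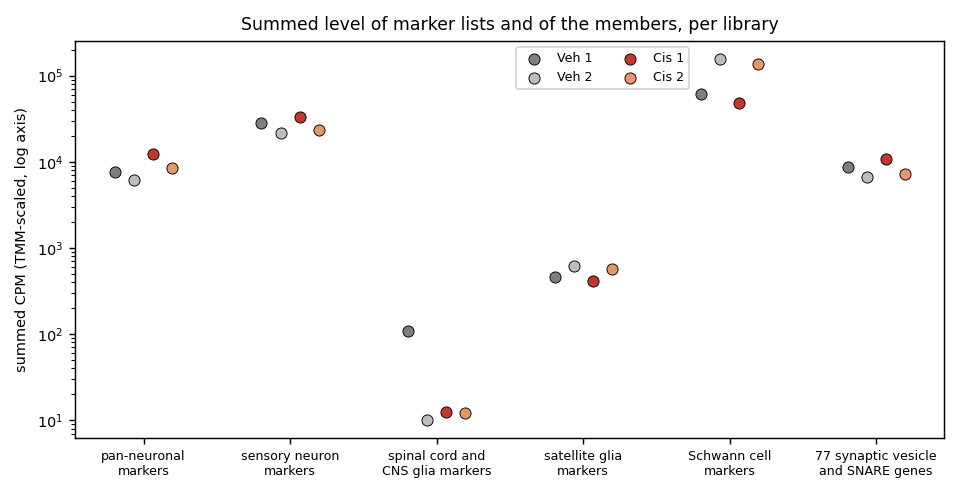
Summed level of 5 marker lists and of the 77 synaptic vesicle and SNARE genes in each library, in TMM-scaled CPM on a log axis; each point is 1 library. The spinal cord and CNS glia markers lie at 108 CPM in vehicle replicate 1 and at 10.2 to 12.4 CPM in the others, and the neuronal lists and the members are higher in replicate 1 than in replicate 2 of each group.

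No member was differentially expressed in the comparison of cisplatin-treated with vehicle-treated rats by edgeR's quasi-likelihood test, in which a call needed both an adjusted p below 0.05 and a change of 1.5-fold or more. Changes are given as log2FC, the log2 fold change of cisplatin-treated against vehicle-treated rats, with its standard error (SE). The smallest adjusted p of a member was 0.522 in edgeR, and the test called 0.00679% of all genes, a single gene. At an unadjusted p under 0.05 with the same fold, 2 members were higher after cisplatin, Rab3a and Napa, and 0 were lower, where 2.77% of all genes were higher and 5.18% lower. DESeq2 called 1 of the 73 members, Rab3a, where it called 1.03% of all genes to which it gave an adjusted p. Over the 73 members the median log2FC was 0.12, with 46 higher and 27 lower, against a median of -0.01 and 49.1% higher over all genes tested. That median depended on single libraries: it was -0.14 without cisplatin replicate 1, -0.05 without vehicle replicate 2, 0.30 without vehicle replicate 1 and 0.34 without cisplatin replicate 2. In whole ganglia, fewer cells of a type and less RNA per cell cannot be told apart. With 2 libraries against 2, an exact two-sided permutation test of 1 gene cannot give a p below 0.333, and the replicates stand for rats as the labels number them.

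In 11 members both cisplatin libraries lay above both vehicle libraries, and in 8 both lay below. Over all genes, 20.6% lay above and 21.2% below. The spread within groups was wide. The SE of the log2FC, at a median of 0.34, was larger than the change itself in 41 of the 73 members. Vehicle replicate 1 exceeded vehicle replicate 2 in 54 members, cisplatin replicate 1 exceeded cisplatin replicate 2 in 56, and both held in 49, which is 67.1% of the members against 34.2% of all genes.

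Genes of neuronal release led the members in level per gene length. Snap25 led with a mean of 358 FPKM over the 4 libraries, followed by Cplx1 with 352 FPKM, Vamp1 with 327 FPKM, Syp with 228 FPKM and Syt11 with 209 FPKM. Snap25 and Cplx1 did not differ beyond their spread, at 278 ± 16.3 and 309 ± 89.0 FPKM in vehicle-treated rats (SD, n = 2 each). Napa at 161 FPKM, Vamp8 at 124 FPKM, Vamp2 at 114 FPKM and Nsf at 84.5 FPKM followed. The FPKM of Vamp8 rests on a gene model of only 300 bases. In CPM it had 27.0 to 53.4 CPM, where the median of the mean levels was 37.6 CPM over the tested members. At the other end, Syt8 was at 0 in every library, Cplx3 had 0, 0, 0 and 2 counts, Cplx4 had 1, 0, 9 and 0, and Syt10 had 8, 1, 3 and 4 in vehicle replicates 1 and 2 and cisplatin replicates 1 and 2. These 4 members were not tested.

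The proximal promoters of Rab3a, Napa and Stx16 are shown because these 3 genes had the smallest unadjusted p of all members in edgeR. Each stretch covers 250 bases before and 50 after the annotated start, as listed by RefSeq on GRCr8, a later build than the Rnor_6.0 of the expression tables. Capitals mark matches on either strand of the cAMP response element TGACGTCA, of its shorter form TGACG, which the full element contains, and of the GC box GGGCGG. Rab3a lies at chr16:18722224-18722523 on the minus strand, Napa at chr1:85915185-85915484 on the plus strand and Stx16 at chr3:183271821-183272120 on the plus strand.
Rab3a: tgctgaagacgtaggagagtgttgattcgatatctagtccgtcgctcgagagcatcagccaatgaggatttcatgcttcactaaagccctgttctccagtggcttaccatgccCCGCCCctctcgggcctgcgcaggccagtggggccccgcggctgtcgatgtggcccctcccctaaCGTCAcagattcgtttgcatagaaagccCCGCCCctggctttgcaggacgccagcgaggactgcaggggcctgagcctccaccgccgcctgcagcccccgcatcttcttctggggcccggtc
Napa: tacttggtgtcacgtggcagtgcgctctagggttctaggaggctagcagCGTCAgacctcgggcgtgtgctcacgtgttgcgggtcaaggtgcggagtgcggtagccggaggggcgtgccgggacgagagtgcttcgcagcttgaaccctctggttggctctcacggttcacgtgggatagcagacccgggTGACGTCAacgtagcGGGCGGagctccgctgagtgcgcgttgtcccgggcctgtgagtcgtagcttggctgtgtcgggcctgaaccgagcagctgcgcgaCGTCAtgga
Stx16: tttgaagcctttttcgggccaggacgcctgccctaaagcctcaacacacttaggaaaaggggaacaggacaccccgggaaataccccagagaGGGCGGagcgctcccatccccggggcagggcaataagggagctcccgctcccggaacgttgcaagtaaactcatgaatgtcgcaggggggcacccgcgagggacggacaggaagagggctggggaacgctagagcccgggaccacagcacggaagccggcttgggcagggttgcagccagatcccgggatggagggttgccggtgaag
The Napa promoter held a full cAMP response element close to a GC box and 2 further short forms, Rab3a held 2 GC boxes around a short form, and Stx16 held a GC box alone. Of the 77 members, 62 were found in the promoter table. The GC box occurred in 71% of these 62 promoters against 34.9% of 27457 promoters of the same length, which were not limited to tested genes. The full cAMP response element occurred in 4.84%, only 3 promoters, against 1.91%, and its short form in 29% against 22%. The median GC content was 63.3% in the members and 52.3% in all promoters. A match is a description of the letters and not a bound site.

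Rab3a, the vesicle GTPase that brings vesicles to the release site, had the smallest p of the members and the largest positive log2FC. Rab3a (ENSRNOG00000019433; chromosome 16, 20435101 to 20439206, minus strand, Rnor_6.0) had 73.2 and 76.4 CPM in vehicle replicates 1 and 2, and 179 and 138 CPM in cisplatin replicates 1 and 2. Both cisplatin libraries lay above both vehicle libraries, and the vehicle libraries were close together. The means were 74.8 ± 2.21 and 158 ± 29.3 CPM (SD, n = 2 each), a log2FC of 1.08 (SE 0.21, edgeR adjusted p = 0.522). DESeq2 gave an adjusted p of 0.0162 with a log2FC of 1.09. Without vehicle replicate 1 the edgeR value was 1.06, and with any 1 library left out it lay between 0.89 and 1.26. With a correction for gene length it was 0.945. Rab3a overlaps Mpv17l2 on the opposite strand by 874 bases, and whether the counting used strand was not given in the sources used here. Mpv17l2 had 478, 419, 559 and 559 counts.

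Napa, which encodes alpha-SNAP, the adaptor that recruits NSF to used SNARE complexes, was the other member with a fold of at least 1.5 at an unadjusted p under 0.05. Napa (ENSRNOG00000001494; chromosome 1, 77994203 to 78012845, plus strand) had 196 and 198 CPM in the vehicle libraries and 354 and 262 CPM in the cisplatin libraries. The groups did not overlap, and cisplatin replicate 1 was the highest. Its log2FC was 0.65 (SE 0.24, edgeR adjusted p = 0.523, DESeq2 adjusted p = 0.338), and it was 0.65 without vehicle replicate 1, 0.42 without cisplatin replicate 1 and 0.85 without cisplatin replicate 2. With a correction for gene length it was 0.53, a fold below 1.5. Its partner Nsf, the ATPase that pulls the SNARE complex apart, had 328 and 259 CPM in vehicle-treated and 431 and 284 CPM in cisplatin-treated rats. These ranges overlapped, with a log2FC of 0.28 (SE 0.29, edgeR adjusted p = 0.767). Of the 7 genes for SNARE disassembly and endocytosis, 6 had positive and 1 a negative fold change, with a median of 0.18. The negative one was Napb, which encodes the brain-enriched beta-SNAP. The Napa relative Napg, and the clathrin adaptor gene Snap91, were at 0.18 and 0.21, and the endocytic phosphatase genes Synj1 and Synj2 both at 0.03.

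**Figure D2:**
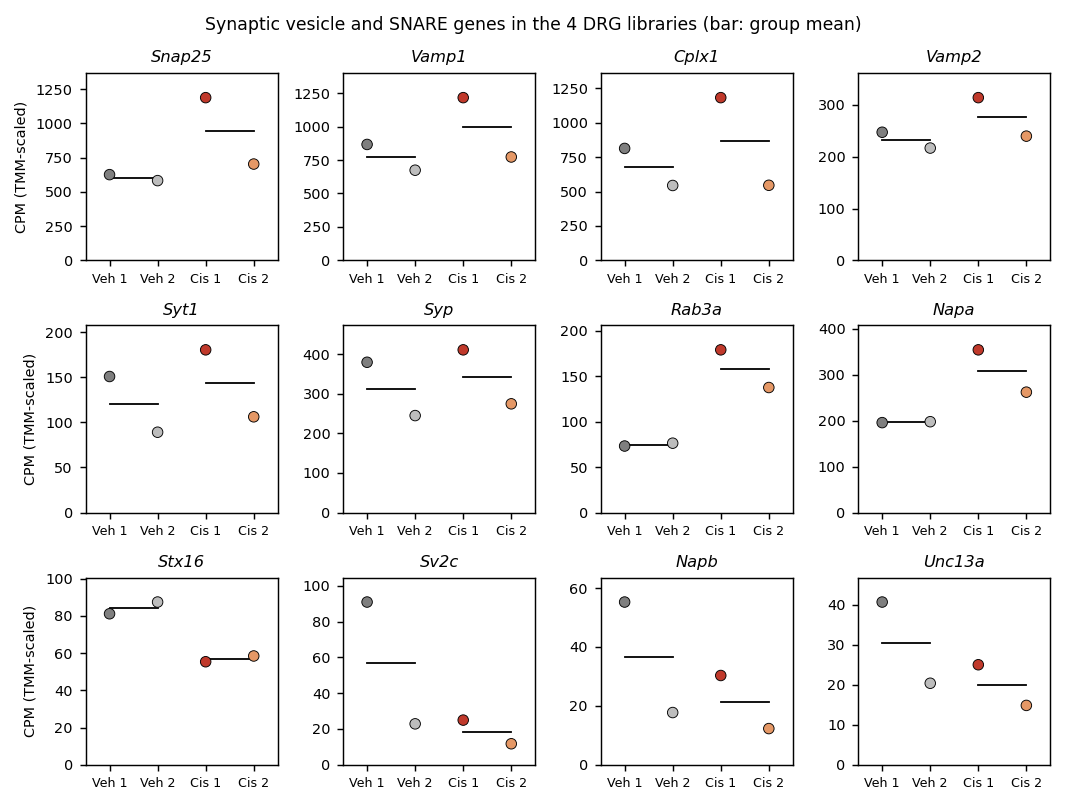
Level of 12 members in each library, in TMM-scaled CPM; points are libraries, the bars are group means, and each axis starts at 0. Rab3a, Napa and Snap25 are higher in both cisplatin libraries than in both vehicle libraries, Stx16 is lower in both, and Sv2c, Napb and Unc13a are highest in vehicle replicate 1.

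Snap25 encodes the plasma membrane SNARE that several botulinum toxins cleave. Snap25 (ENSRNOG00000006037; chromosome 3, 129599353 to 129788400, plus strand) had 626 and 582 CPM in the vehicle libraries and 1188 and 703 CPM in the cisplatin libraries. Both cisplatin libraries were above the vehicle libraries, but cisplatin replicate 1 carried most of the difference. The log2FC was 0.65 (SE 0.34, edgeR adjusted p = 0.574), and it fell to 0.23 without cisplatin replicate 1. In the SNAP-25 family, Snap47 and Snap29 also had groups that did not overlap, with log2FC values of 0.40 and 0.07, while Snap23, the form of non-neuronal cells, was at -0.01 with 2.44 to 3.76 CPM. None passed the test, and over all genes tested both cisplatin libraries lay above both vehicle libraries in 20.6%.

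The plasma membrane syntaxins, the partners of SNAP-25, overlapped between the groups in all 6 tested genes. Stx1a had a mean of 31.2 ± 11.6 CPM in the vehicle libraries against 41.5 ± 17.4 CPM after cisplatin (SD, n = 2 each), with a log2FC of 0.41 (SE 0.39, edgeR adjusted p = 0.743). Stx2, Stx3, Stx4 and Stx11 lay between -0.14 and 0.32.

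The vesicle SNAREs, or synaptobrevins and their relatives, had a median log2FC of 0.15, with 5 higher and 2 lower. Vamp1 was the leading form at 866 and 674 CPM in vehicle-treated and 1216 and 773 CPM in cisplatin-treated rats. The groups overlapped, and the log2FC was 0.37 (SE 0.34, edgeR adjusted p = 0.734). Vamp2, the form best known from central synapses, had 247 and 217 CPM against 314 and 240 CPM, a log2FC of 0.26 (SE 0.24, edgeR adjusted p = 0.737). Without cisplatin replicate 1, Vamp1 was at 0.01 and Vamp2 at 0.05. Of the endosomal and non-neuronal forms, Vamp4 was at 0.08, Vamp3 at -0.11, Vamp7 at -0.14, Vamp8 at 0.15 and Vamp5 at 0.17. The 2 cisplatin libraries lay below both vehicle libraries only in Vamp7 among these, at 30.9 and 28.1 against 26.1 and 27.5 CPM.

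The syntaxins of endosomes, Golgi and ER held 3 genes of 8 with both cisplatin libraries above and 2 with both below, where 20.6% and 21.2% of all genes did so. Stx16, a SNARE of the trans-Golgi network (ENSRNOG00000005281; chromosome 3, 172154754 to 172183732, plus strand), had 81.2 and 87.5 CPM in the vehicle libraries and 55.4 and 58.5 CPM in the cisplatin libraries. The gap between the groups was wide against the spread within them. The log2FC was -0.57 (SE 0.17, edgeR adjusted p = 0.522), a fold below 1.5 at an unadjusted p under 0.05, and with 1 library left out it ranged from -0.61 to -0.51. After a correction for gene length it was -0.40. Stx8, a late endosomal SNARE, went the other way with 22.1 and 23.6 CPM against 31.8 and 31.2 CPM. Its log2FC was 0.46 (SE 0.19, edgeR adjusted p = 0.528), or 0.23 after the length correction, and this too was a fold below 1.5. Its late endosomal partner Stx7 had 21.4 and 15.9 CPM against 25.5 and 27.8 CPM, a log2FC of 0.51 (edgeR adjusted p = 0.541), which was 0.32 without vehicle replicate 2. Stx17, the SNARE of autophagosomes, had 6.71 and 8.79 CPM against 5.27 and 4.42 CPM, a log2FC of -0.67 (edgeR adjusted p = 0.540). Stx12, of recycling endosomes, was nearly level at 173 and 163 against 174 and 164 CPM, with a log2FC of 0.00. Stx18, of the ER, was at 0.36 and did not overlap, whereas Stx5 and Stx6 did, at 0.38 and -0.37.

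The calcium-sensing synaptotagmins split by replicate number. All 7 tested genes were higher in replicate 1 than in replicate 2 in both groups, as were 34.2% of all genes tested. The same held for all 6 tested vesicle membrane and synapsin genes and all 10 markers of each neuronal list. Syt1, a fast calcium sensor, had 151 and 89.0 CPM in the vehicle libraries and 180 and 106 CPM in the cisplatin libraries. The log2FC of 0.26 (SE 0.37, edgeR adjusted p = 0.839) was smaller than its standard error. Syt2, the sensor of fast synapses, had 139 and 75.6 CPM against 98.7 and 61.5 CPM. Its log2FC was -0.42 (SE 0.37, edgeR adjusted p = 0.725), and without vehicle replicate 1 it was 0.09. Syt5 was the only one of the 7 whose groups did not overlap, at 43.3 and 35.0 against 62.0 and 47.9 CPM, a log2FC of 0.49 (SE 0.22, edgeR adjusted p = 0.544), which was 0.30 without cisplatin replicate 1. Syt3, Syt6 and Syt9 were at 0.23, 0.33 and 0.01.

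Among the other synaptotagmins, Syt11, which does not bind calcium, was the most abundant synaptotagmin by far at 213 ± 58.1 FPKM in vehicle-treated and 205 ± 59.7 FPKM in cisplatin-treated rats (SD, n = 2 each). In CPM it had 1106 and 757 against 1077 and 708, and its log2FC was -0.06 (SE 0.35, edgeR adjusted p = 0.962). Its close relative Syt4 was at 0.19. Syt15, a low transcript, had 5.43 and 2.95 CPM against 7.68 and 6.59 CPM and did not overlap, with a log2FC of 0.76 (SE 0.38, edgeR adjusted p = 0.567), which was 0.39 without vehicle replicate 2 and 1.28 without vehicle replicate 1. Syt14 also did not overlap, at 1.72 and 0.97 against 1.89 and 1.83 CPM. The remaining forms, Syt12, Syt13, Syt16 and Syt17, lay between -0.10 and 0.32 and below 30 CPM.

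The syntaxin-binding proteins and complexins had a negative median of -0.36, with 2 higher and 6 lower. Cplx1, the complexin that clamps and then promotes fusion, had 814 and 544 CPM in vehicle-treated and 1183 and 546 CPM in cisplatin-treated rats. A log2FC of 0.35 (SE 0.45, edgeR adjusted p = 0.818) rested on cisplatin replicate 1, and it was -0.31 without that library. The lower members included 3 inhibitors or binding partners of syntaxins whose groups did not overlap, out of 8 tested. Over all genes tested, 21.2% had both cisplatin libraries below. Stxbp6, which encodes amisyn, had 3.24 and 5.79 CPM against 1.34 and 2.93 CPM, a log2FC of -1.08 (SE 0.53, edgeR adjusted p = 0.563). It was -0.60 without vehicle replicate 2, -0.61 without cisplatin replicate 1 and -1.75 without cisplatin replicate 2. Stxbp4, a binding partner of syntaxin 4, had 3.88 and 4.06 CPM against 1.81 and 2.47 CPM, a log2FC of -0.89 (SE 0.36, edgeR adjusted p = 0.531). Stxbp4 overlaps AABR07030254.1 on the other strand, which had 147, 129, 144 and 152 counts. Stxbp5, which encodes tomosyn, had 88.0 and 92.0 CPM against 73.9 and 70.9 CPM, a log2FC of -0.31. Stxbp2 and Stxbp3 overlapped, at -0.34 and -0.41.

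The priming and Rab3 genes also had a negative median, -0.37, although Rab3a stood among them. Of the 12, 5 were higher and 7 lower. Unc13b, which encodes the priming factor Munc13-2, had 14.8 and 17.4 CPM in the vehicle libraries and 10.3 and 13.1 CPM in the cisplatin libraries. The groups did not overlap, and the log2FC was -0.46 (SE 0.24, edgeR adjusted p = 0.570), or -0.29 without cisplatin replicate 1. After the length correction it was -0.09. Rab3b, Rab3c and Rab3d, the relatives of Rab3a, were at 0.28, -0.39 and 0.26, each with overlapping groups. The RIM genes Rims1, Rims2, Rims3 and Rims4, whose products scaffold the release site, were at -0.48, -0.62, -0.34 and -0.93, and Unc13a, which encodes Munc13-1, at -0.62. These 5 genes were each highest in vehicle replicate 1, and without that library Rims1 was at 0.05, Rims2 at -0.01, Rims3 at 0.23, Rims4 at -0.20 and Unc13a at -0.02.

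The vesicle membrane proteins and synapsins overlapped between the groups in all 6 tested genes. Syp, the synaptophysin gene, had 380 and 245 CPM in vehicle-treated and 411 and 275 CPM in cisplatin-treated rats. The log2FC of 0.13 (SE 0.33, edgeR adjusted p = 0.908) was well within the spread between rats. Syn1, whose product tethers vesicles to the cytoskeleton, had 141 and 108 CPM against 227 and 138 CPM, a log2FC of 0.55 (SE 0.31, edgeR adjusted p = 0.587). It was 0.16 without cisplatin replicate 1 and 0.87 without cisplatin replicate 2. Syn1 overlaps Timp1 on the opposite strand by 4599 bases, with 703, 788, 920 and 1220 counts, and LOC102555453, with 318, 348, 415 and 1516 counts. Sv2a, the binding site of the antiepileptic drug levetiracetam, had 79.9 and 35.3 CPM against 89.8 and 52.5 CPM, a log2FC of 0.30 (SE 0.45, edgeR adjusted p = 0.845). Syn2 and Syn3 were at 0.25 and -0.13. Sv2b, outside the rule, had 149 and 108 CPM against 199 and 121 CPM.

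In 5 members described here with negative fold changes, vehicle replicate 1 was the highest library, and the value rose without it. These 5 members are named after their values were seen. Other members, such as Syt2 and the RIM genes, had the same pattern. Leaving that library out keeps only vehicle replicate 2 in its group. Some positive values rose too, with Sv2a going from 0.30 to 1.02 and Syt1 from 0.26 to 0.69. Sv2c, the SV2 form with the most restricted expression in the brain, had 90.9 CPM in vehicle replicate 1 and 22.9, 25.0 and 11.7 CPM in vehicle replicate 2 and cisplatin replicates 1 and 2. Its log2FC was -1.63 (SE 0.70, edgeR adjusted p = 0.533), and without vehicle replicate 1 it was -0.31. Napb had 55.2 CPM in that library and 17.7, 30.3 and 12.3 CPM in the others, with a log2FC of -0.78, or 0.27 without it. Syt7, a high-affinity calcium sensor for slow release, had 39.8 CPM there and 19.9, 25.0 and 13.5 CPM in the others, with -0.63, or -0.04 without it. Unc13a had 40.7 CPM against 20.4, 25.0 and 14.8 CPM, and Cplx2 had 90.7 CPM against 51.8, 65.7 and 43.2 CPM with a log2FC of -0.39, or 0.08 without the library. This was the library with 108 CPM of spinal cord and CNS glia markers against 10.2 to 12.4 CPM in the others, and the part of that tissue in these values was not tested. Rab3a, Napa, Snap25 and Stx16 kept log2FC values of 1.06, 0.65, 0.71 and -0.61 without it.

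**Figure D3:**
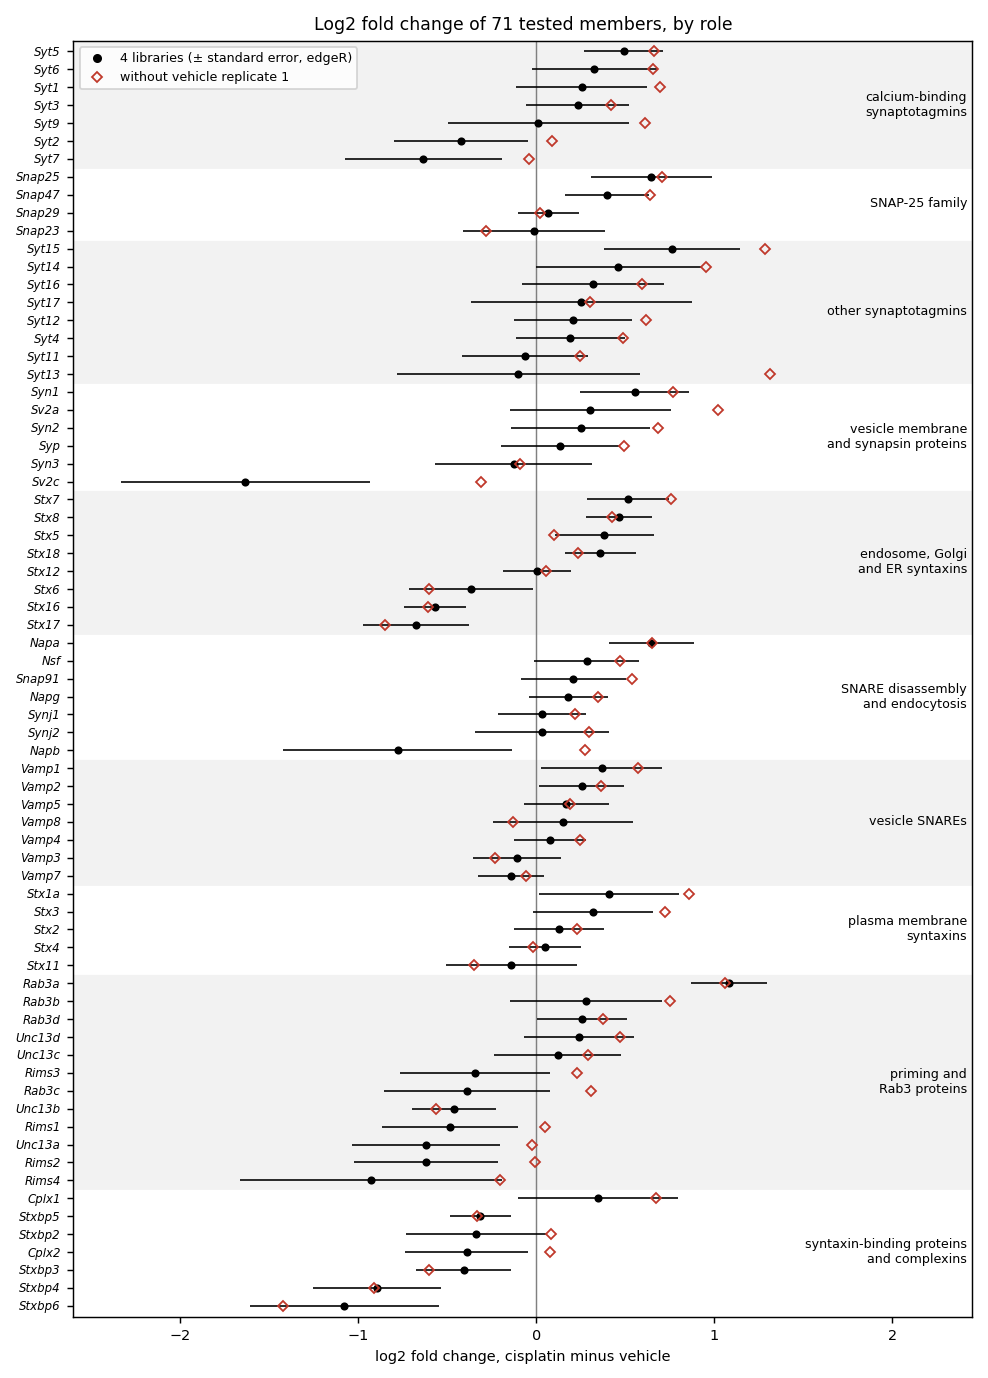
Log2 fold change, cisplatin minus vehicle, of 71 of the 73 tested members by role; black points with bars are the edgeR values of the 4 libraries ± standard error, and red diamonds are the values without vehicle replicate 1. Most bars reach across or close to 0, Rab3a lies at 1.08 with and 1.06 without that library, and Sv2c moves from -1.63 to -0.31.

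Neuronal markers also had mostly positive fold changes, none of them called. The 10 pan-neuronal markers summed to 7583 and 6179 CPM in vehicle-treated and 12344 and 8414 CPM in cisplatin-treated rats, and 8 of the 10 had a positive fold change, with a median of 0.33. The other 2 were Elavl3 at -0.42 and Map2 at -1.23. Map2 was the only pan-neuronal marker past the unadjusted threshold. It had 70.7 and 30.6 CPM in the vehicle libraries and 21.8 and 21.5 CPM in the cisplatin libraries. The 10 sensory neuron markers had a median of 0.18, with 9 positive. The 77 members together summed to 8746 and 6724 CPM against 10639 and 7179 CPM, higher in replicate 1 of each group, as were all 10 markers of both neuronal lists. The Schwann cell markers ran the other way between replicates, with 61130 against 156758 CPM in the vehicle libraries and 47875 against 137188 CPM in the cisplatin libraries. The part of neuronal and Schwann cell content in the members' values was not tested.

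Ratios of related genes within a library cancel the depth of that library, and they were formed for the 2 most abundant members per length of each of 11 families. The ratio of Rab3a to Rab3d in FPKM was 1.83 and 2.20 in the vehicle libraries and 3.36 and 3.82 in the cisplatin libraries. The ratio of Cplx1 to Cplx2 was 10.4 and 12.1 against 20.8 and 14.6, and that of Syt11 to Syt4 was 4.56 and 4.48 against 3.79 and 3.79. The last of these had a spread within groups far smaller than the gap between them, although neither gene separated the groups by itself. The ratio of Sv2a to Sv2c was 0.610 and 1.07 against 2.50 and 3.11, which includes the high Sv2c of vehicle replicate 1. Ratios of Napa to Napg, Rims3 to Rims1 and Syn1 to Syn2 were also higher in both cisplatin libraries, that of Unc13a to Unc13c was lower in both, and the ratios of the other 3 families overlapped. The ratio of Rims3 to Rims1 separated by little, with 2.82 in both the higher vehicle and the lower cisplatin library. These ratios are a description without a test, no share over other gene pairs was computed, and the ratios with Sv2c and Unc13a include genes that were highest in vehicle replicate 1.

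**Figure D4:**
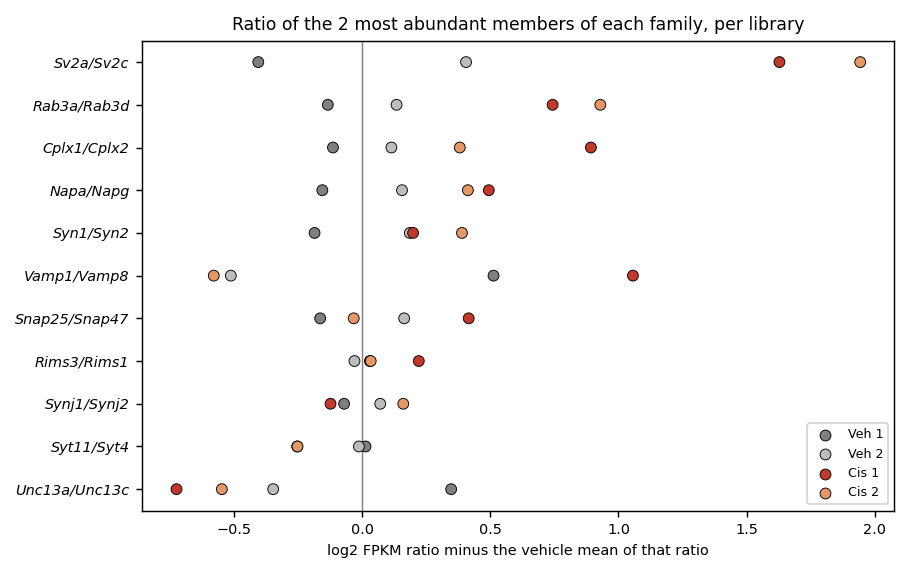
Ratio in FPKM of the 2 most abundant members of each of 11 families, as log2 minus the vehicle mean of that ratio; each point is 1 library. The cisplatin libraries lie above both vehicle libraries in 6 families, among them Rab3a/Rab3d, and below in 2, Syt11/Syt4 and Unc13a/Unc13c; the 2 cisplatin points of Syt11/Syt4 coincide.

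In 2 further lists of pathway genes, edgeR called 0 genes. Of 50 tested presynaptic genes outside the rule, such as active zone scaffolds, synucleins, vesicular transporters and clathrin adaptors, 22 were higher and 28 lower, with a median log2FC of -0.06. At an unadjusted p under 0.05 with a fold of at least 1.5, 1 was higher, Ap2s1, a subunit of the clathrin adaptor AP2, and 1 lower, Ppfia1, which encodes liprin-alpha-1 of the active zone. Over all genes tested, 49.1% had a positive fold change, and 2.77% were higher and 5.18% lower at this unadjusted threshold. Ppfia1 had 32.9 and 50.7 CPM in vehicle-treated and 18.0 and 17.3 CPM in cisplatin-treated rats, a log2FC of -1.24 (SE 0.26, edgeR adjusted p = 0.522, DESeq2 adjusted p = 0.0298). Ap2s1 had 168 and 155 CPM against 290.4 and 222 CPM, a log2FC of 0.66 (edgeR adjusted p = 0.522, DESeq2 adjusted p = 0.315). Of 17 other trafficking SNARE genes, 12 were higher and 5 lower, with a median of 0.10, and Bnip1 was higher and Sec22c lower at that unadjusted threshold. Bnip1, an ER SNARE, had 275 and 302 counts in the vehicle libraries against 597 and 508 in the cisplatin libraries, and Sec22c had 272 and 308 against 136 and 209.

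Gene length, meaning the length that FPKM divides by and not the span on the chromosome, was related to the fold change in these libraries. Spearman's rho between length and log2FC was -0.36 over all genes tested but -0.07 over the 73 members, with genes as the points, which are not independent replicates. The members had a median length of 2545 bases, against 2371 bases for all genes tested.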

How the data were processed

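RNA of lumbar DRGs was sequenced from 2 rats given vehicle and 2 given cisplatin. The authors selected polyadenylated RNA, mapped reads to Rnor_6.0 with HISAT2 (2.0.5) and assembled transcripts with StringTie (1.3.3b). The processing notes also list featureCounts (1.5.0-p3), with no strand setting given in the sources used here. The authors deposited whole-number counts per gene without normalisation, and FPKM values, which equal counts divided by gene length and by 0.938 to 1.10 times the library total. Groups and replicate numbers came from the sample titles.

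Protein-coding genes kept by edgeR's filterByExpr were normalised with TMM (factors 1.10, 0.941, 1.03 and 0.938) and tested by the quasi-likelihood functions glmQLFit and glmQLFTest of edgeR 4.0.16 (R 4.3.3), with Benjamini-Hochberg adjustment over all 14719 genes. Standard errors were derived from the F statistic. DESeq2 1.42.0 was the alternative tool; other size factors, filters, biotypes, a lowess length correction (span 0.3) and leaving out libraries were also tried. The members, lists and tests were chosen with earlier results of these data known. Genes were named if they belong to the core fusion machinery, were among the 12 non-overlapping members of smallest p, were called without a block, or led their role in FPKM; Sv2c, Napb, Syt7, Unc13a, Cplx2 and further members were named after their values were seen. Promoters were matched by symbol in RefSeq (GRCr8). Results for some single genes are left out.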

Additional observations from a re-analysis of the deposited data

How the results depend on the processing

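No member was called by edgeR without a block under any other normalisation, filter, biotype choice, length correction or library left out. DESeq2 called 1 member higher and had 1 lower at an unadjusted p under 0.05 with a fold of at least 1.5. The numbers of members past that unadjusted threshold, 2 higher and 0 lower, became 1 and 2 with library size alone and 1 and 1 with the length correction; the lower count was 2 without the filter on low counts and 1 with a minimum of 10 counts per library. Both cisplatin libraries lay above in 7 members with library size alone and below in 5 with the length correction. Log2 fold changes near 0 changed sign: Stx12 to -0.055 with library size alone, Syt11 to 0.10 and Syp to -0.0041 with the length correction. The causes were not tested.

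With 1 library left out, the higher count ranged from 1 to 4 and the lower from 0 to 5, the non-overlapping counts from 13 to 42 above and 10 to 24 below, since fewer libraries have to separate, and the median of the members from -0.14 to 0.34. Log2 fold changes ranged from -0.80 to 0.0912 (Syt2), -0.39 to 0.25 (Syt11), -1.57 to 0.27 (Napb), -0.74 to 0.0801 (Cplx2), -0.17 to 0.69 (Syt1), -0.0388 to 0.0578 (Stx12), -0.18 to 0.49 (Syp), -0.17 to 1.02 (Sv2a), -0.10 to 0.86 (Stx1a), -0.0416 to 0.55 (Nsf) and -0.31 to 0.80 (Cplx1). A group of 1 library was assumed to vary like the other.

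The titles number the rats 1 and 2 in each group, whereas the sample descriptions name the cisplatin libraries Cis4 and Cis6. The rats are different animals. The sources used here give no pairing by number, and the numbers were not taken as pairs in the main test. The deviations of same-numbered libraries correlated across genes at Pearson's r = 0.55. With the replicate block edgeR called 3 members higher and 4 lower (10.4% of all genes), and 4 and 7 passed the unadjusted threshold. The 3 higher were Napa, Rab3a and Snap25. The 4 lower were Stxbp6, Sv2c, Napb and Syt7, the last 3 with log2FC values of -1.44, -0.71 and -0.62. With the replicate block and the length correction edgeR called 2 and 4 (6.54% of all genes), 7 were lower at the unadjusted threshold, and Syt11 was at 0.0898.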
